A study of Mus musculus with 13 samples.

Results

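Adipokines are the proteins that fat tissue secretes into blood or releases to its neighbours. The genes described here are 10 of the 34419 genes counted in mouse gluteal white adipose tissue (WAT): the hormones *Lep* (leptin), *Adipoq* (adiponectin) and *Retn* (resistin), the complement protease *Cfd* (adipsin), the retinol carrier *Rbp4*, the NAD-synthesizing enzyme *Nampt* (visfatin), and the signaling ligands *Nrg4*, *Apln* (apelin), *Fgf21* and *Angptl2*. They were chosen by name, and each matched 1 row of the counts by gene identifier. Leptin is made almost only by adipocytes, in amounts that follow the size of the fat store, and it informs the brain of energy reserves through its receptor LEPR. Adiponectin is made by adipocytes too, circulates as large disulfide-bonded multimers, and acts on liver and muscle through ADIPOR1, ADIPOR2 and T-cadherin. Because leptin and adiponectin usually move in opposite directions when fat mass changes, the ratio of one to the other is often used as a summary of the state of the fat.

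Male C57BL/6J mice were born and kept at 22°C (7 libraries) or 29°C (6 libraries), and RNA of their gluteal depot was sequenced at an age of 13 weeks. Every animal, at either temperature, lived alone in a cage without nest-building material, and a depilatory had cleared the fur from their hindquarters. The gluteal depot lies under the skin, and other fat depots are not covered by these libraries. The labels number the samples within each temperature, and p-values here measure the spread among these samples.

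Total counts ran from 22356637 to 25195800 at 22°C and from 24821549 to 25245785 at 29°C. The totals formed a lower cluster of 5 libraries, 22°C replicates 1 to 5, and a higher cluster of 8 libraries, 22°C replicates 6 and 7 with all of 29°C. The tissue label was matched by 19 adipocyte markers outside the adipokines, such as *Plin1* and *Fabp4*, whose summed level lay between 31550 and 45020 CPM (counts scaled to library size) in the 22°C libraries, and between 32450 and 48750 CPM in those from 29°C, with none of the 19 passing edgeR or DESeq2 and none at an unadjusted p below 0.05. Skeletal muscle markers varied far more. Their 15 genes summed to 781 to 84540 CPM at 22°C, against 149.4 to 6868 CPM at 29°C, and 22°C replicates 1 and 7 stood apart at 62170 and 84540 CPM. None of the 15 muscle genes passed the edgeR test, although all were positive and 8 had an unadjusted p below 0.05. DESeq2 called 7 of them higher at 22°C. Among all genes tested by edgeR, 48.4% were negative and 18.5% had an unadjusted p below 0.05. DESeq2 called 10.2% of the genes to which it gave an adjusted p, in either direction. Calls on adipokines that were lost without these libraries are given as such below. Among the other marker lists, edgeR called 1 of 9 tested lymphocyte markers (*Cd3e*) higher at 22°C. It also called 3 of 9 tested brown and beige fat markers (*Cidea*, *Cox8b* and *Otop1*) higher, against 0.731% of all genes tested. Of those with an adjusted p by DESeq2, it called 0 of 5 lymphocyte markers and 6 of 8 brown and beige fat markers higher, beside the 10.2% above. No tested marker of fibroblasts (12), endothelium (10), macrophages (10), neutrophils (4), epidermis (6), Schwann cells (6) or red blood cells (6) passed edgeR. By edgeR, 1 each of the fibroblast, endothelial and Schwann cell markers had an unadjusted p below 0.05, against 18.5% of all genes tested. DESeq2 called none of these markers, but gave an adjusted p to only 2 neutrophil, 5 epidermis and 5 red blood cell markers.

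*Lep* was lower in every library at 22°C than in any library at 29°C. The level was 501.6, 940, 703.4, 734.6, 892.4, 757.3 and 618.3 CPM in 22°C replicates 1 to 7. At 29°C it was 1617, 1223, 971.6, 1410, 1240 and 1106 CPM in replicates 1 to 6. The highest library at 22°C therefore lay below the lowest at 29°C, and the groups did not overlap. Means were 735 ± 151 CPM at 22°C (SD, n = 7) against 1261 ± 227 CPM at 29°C (SD, n = 6). The log2 difference between 22°C and 29°C was -0.78 (SE 0.15), so that *Lep* was 1.72-fold higher at 29°C, with P-adj = 0.0564 by edgeR's quasi-likelihood test with Benjamini-Hochberg adjustment over all genes tested. It was the only one of the 9 tested adipokines below the threshold of 0.1, against 1.94% of the 17779 genes tested, 1.21% lower and 0.731% higher at 22°C. The share of tested genes whose groups did not overlap with 22°C below 29°C was 0.748%. Relative to the mean log2 count of the adipocyte markers, the difference in *Lep* was -0.72, and on that scale the groups overlapped. Bulk tissue gives no count of adipocytes, and the part of adipocyte number in the *Lep* difference was not tested.

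**Figure D1:**
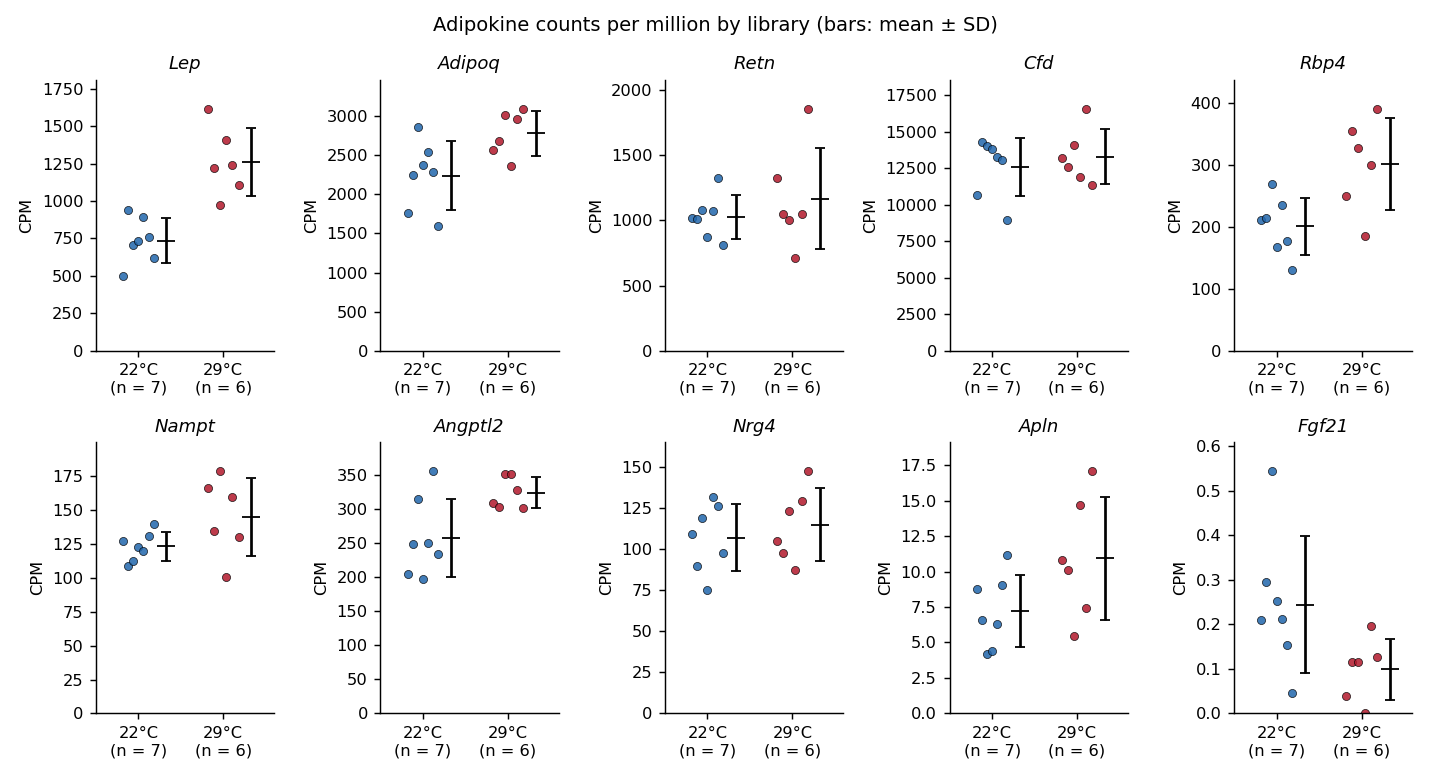
Level of each adipokine gene in CPM (vertical axes, linear, from 0) for the 7 libraries at 22°C (blue points) and the 6 at 29°C (red points), in replicate order from left to right, with bars for mean ± SD. *Lep* is the only gene whose points do not overlap between temperatures, with all libraries at 22°C at or below 940 CPM and all at 29°C at or above 971.6 CPM.

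The difference in *Lep* lay between -0.88 and -0.64 in every setting tried, but its P-adj was not always below the threshold. Without 22°C replicates 1 and 7, the libraries rich in muscle RNA, it was -0.65 (P-adj = 0.0724, edgeR), and with the muscle markers' score as a covariate it was -0.75 (P-adj = 0.150, edgeR). With a score of adipocyte markers as the covariate it was -0.79 (P-adj = 0.0527, edgeR). Among the 8 libraries with higher totals, where 22°C is represented by replicates 6 and 7 alone at 757.3 and 618.3 CPM, the difference was -0.88 (P-adj = 0.259, edgeR), and the lower cluster holds 22°C only. Leaving out 29°C replicate 1 or 29°C replicate 2 gave P-adj of 0.104 and 0.124 (edgeR), while DESeq2 gave 0.000105.

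**Figure D2:**
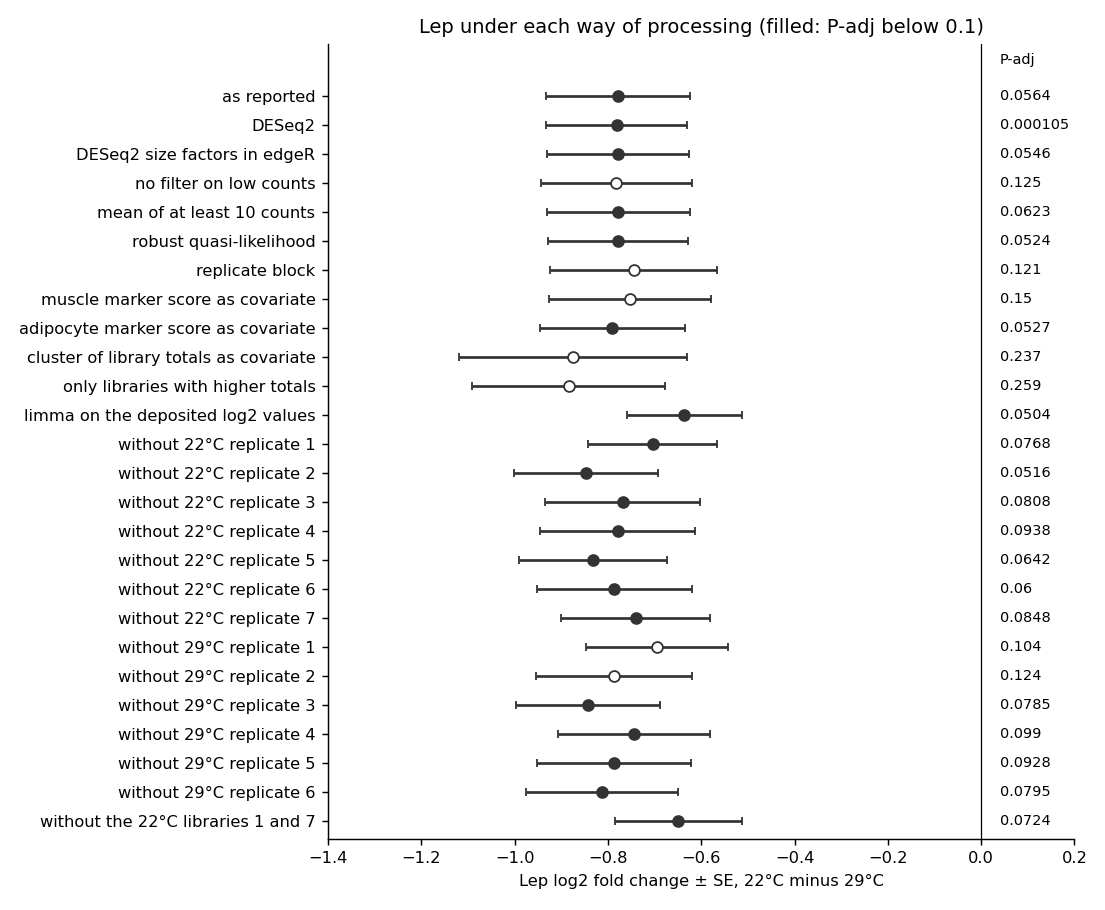
Log2 fold change of *Lep* (horizontal axis, 22°C minus 29°C, ± SE) under each way of processing the counts (rows), with P-adj at the right and filled points where it was below 0.1. All points lie left of 0, between -0.88 and -0.64, while P-adj runs from 0.000105 with DESeq2 to 0.259 among the libraries with higher totals.

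The stretches just upstream of *Lep* and of *Adipoq* are shown because the first is the adipokine that passed the test and the second is the denominator of the ratios below. They are the 250 bases before the RefSeq start site on the plus strand of GRCm38.p6, chr6:29059971-29060220 for *Lep* and chr16:23146286-23146535 for *Adipoq*, and capitals mark the motifs searched on both strands. These were TTGCGCAA, a palindrome bound by C/EBP factors, CCAAT, the TATA box core TATAA, and the GC box GGGCGG.
Lep: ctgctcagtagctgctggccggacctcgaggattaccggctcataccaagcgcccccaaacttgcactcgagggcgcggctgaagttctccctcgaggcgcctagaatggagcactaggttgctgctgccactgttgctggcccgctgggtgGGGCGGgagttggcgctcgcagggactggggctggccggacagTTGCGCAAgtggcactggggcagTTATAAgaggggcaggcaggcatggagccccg
Adipoq: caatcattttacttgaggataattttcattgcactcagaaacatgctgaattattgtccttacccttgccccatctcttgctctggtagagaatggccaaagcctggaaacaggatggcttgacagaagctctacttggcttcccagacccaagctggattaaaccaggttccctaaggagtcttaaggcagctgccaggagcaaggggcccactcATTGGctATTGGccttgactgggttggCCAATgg
The *Lep* stretch held 1 C/EBP palindrome starting 55 bases upstream of the start site, 1 GC box at 98 bases, and a TATA box core read on both strands at 32 and 31 bases, in overlap. The *Adipoq* stretch held CCAAT 3 times, at 34, 27 and 7 bases, and none of the other motifs. Of 32851 mouse promoter stretches of the same length, 0.164% held the C/EBP palindrome, 33.8% CCAAT, 22.8% TATAA and 32.7% the GC box. None of the stretches of the other 8 adipokines held the C/EBP palindrome. The C/EBP factors themselves are given with the regulators of leptin.

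*Adipoq*, the most abundant hormone gene of the set per kilobase, had 1761, 2248, 2865, 2377, 2538, 2288 and 1599 CPM in 22°C replicates 1 to 7. At 29°C it had 2562, 2685, 3008, 2360, 2965 and 3094 CPM in replicates 1 to 6. The groups overlapped, and the lowest levels were those of 22°C replicates 7 and 1. The means were 2239 ± 436 CPM (SD, n = 7) and 2779 ± 289 CPM (SD, n = 6), a log2 difference of -0.31 (SE 0.14) with P-adj = 0.247 (edgeR). Without 22°C replicates 1 and 7 the difference was -0.18 (P-adj = 0.456, edgeR).

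*Rbp4*, which carries retinol in blood, had 210.2, 214.1, 269.7, 166.7, 235.8, 177.7 and 131 CPM in 22°C replicates 1 to 7. It had 249, 354, 327.3, 184.8, 300.3 and 390.5 CPM in 29°C replicates 1 to 6. Replicates 1 and 4 at 29°C fell among the libraries at 22°C, whereas 4 of the 6 at 29°C lay above all of 22°C. The log2 difference was -0.58 (SE 0.19), with P-adj = 0.151 by edgeR and 0.0424 by DESeq2. It was -0.35 (P-adj = 0.499, edgeR) with the muscle markers' score as a covariate and -0.97 (P-adj = 0.273, edgeR) among the libraries with higher totals. DESeq2 called 10.2% of the 16388 genes to which it gave an adjusted p, 4.65% of them lower at 22°C.

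*Angptl2*, an inflammatory angiopoietin-like protein, was tightly grouped at 29°C, from 302 to 351.3 CPM with a median of 318.1. At 22°C it ranged from 197.6 to 355.3 CPM with a median of 248.2, and replicate 6 held the highest value of all. The log2 difference was -0.33 (SE 0.13), with P-adj = 0.207 (edgeR), and leaving out 22°C replicate 6 gave -0.42 with P-adj = 0.0821 (edgeR). The coefficient of variation between libraries was 22.3% at 22°C and 7.08% at 29°C, and that contrast in spread was not tested.

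*Apln*, the ligand of the G protein-coupled receptor APLNR on endothelium and heart, was expressed at a low level. Its level was 4.214 to 11.17 CPM in the 22°C libraries, compared with 5.452 to 17.05 CPM in the others, with medians of 6.59 and 10.45 CPM. Its log2 difference of -0.60 (SE 0.28) was close to that of *Rbp4* but carried a wider error, and P-adj was 0.282 (edgeR). The highest value at 22°C was that of replicate 7, a library rich in muscle RNA, and without 22°C replicates 1 and 7 the difference was -0.84 (P-adj = 0.210, edgeR). It was much smaller, -0.12 (P-adj = 0.930, edgeR), among the libraries with higher totals and -0.11 (P-adj = 0.937, edgeR) with the cluster of totals as a covariate.

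*Nampt*, the rate-limiting enzyme of NAD salvage that is also found outside cells, lay between 108.6 and 139.9 CPM at 22°C. At 29°C its range was wider, 100.6 to 178.5 CPM. The log2 difference was -0.23 (SE 0.12, P-adj = 0.305, edgeR). The lowest and the highest library were both at 29°C.

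*Retn*, *Cfd* and *Nrg4* showed the smallest differences. *Retn*, whose protein opposes insulin action in mice, had a median of 1019 CPM at 22°C against 1053 CPM at 29°C, and both the lowest (715.3 CPM, replicate 4) and the highest library (1857 CPM, replicate 6) were at 29°C. *Cfd*, the protease that starts the alternative complement pathway, spanned 8956 to 14300 CPM at 22°C, compared with 11320 to 16570 CPM at 29°C. The lowest *Cfd* levels were those of 22°C replicates 7 and 1. *Nrg4*, an EGF-family ligand of ERBB receptors, ranged from 75.48 to 131.9 CPM and from 87.6 to 147.5 CPM. The log2 differences were -0.19 (SE 0.19) for *Retn*, -0.08 (SE 0.15) for *Cfd* and -0.10 (SE 0.15) for *Nrg4*, with P-adj of 0.638, 0.812 and 0.747 (edgeR). With the muscle markers' score as a covariate, the differences of *Retn* and *Nrg4* turned to 0.021 and 0.048, and without 22°C replicates 1 and 7 that of *Cfd* turned to 0.042.

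*Fgf21*, a stress-induced hormone made mainly by liver, was close to the limit of detection and did not pass the filter on low counts. Its counts were 4, 7, 12, 6, 5, 4 and 1 in 22°C replicates 1 to 7 and 1, 3, 3, 0, 5 and 3 in 29°C replicates 1 to 6. The 0 in 29°C replicate 4 allows up to 3 counts, and that limit covers counting error only. The groups overlapped. When no filter was applied, the log2 difference was 1.27 (SE 0.58), with unadjusted p = 0.0442 and P-adj = 0.397 (edgeR). It did not pass the threshold, and counts this low leave its size uncertain.

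All 9 tested adipokines had negative log2 differences, 8 without 22°C replicates 1 and 7 and 7 with the muscle covariate, against 48.4% of all genes tested. *Fgf21*, which did not pass the filter on low counts, went the other way in the fit without it (1.27). The median of the 9 tested adipokines was -0.31 beside 0.01 over all genes tested. Unadjusted p was below 0.05 for 4 of them (*Lep*, *Adipoq*, *Rbp4* and *Angptl2*), compared with 8.2% of all genes tested that were lower at 22°C at that level and 18.5% in either direction. These genes were measured in the same libraries and are not independent, so no p is given for their common sign. The 10 genes took up 1.106% to 1.985% of the counts of a library at 22°C, against 1.744% to 2.318% at 29°C, and the 2 lowest shares, 1.106% and 1.24%, were those of the muscle-rich 22°C replicates 7 and 1.

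**Figure D3:**
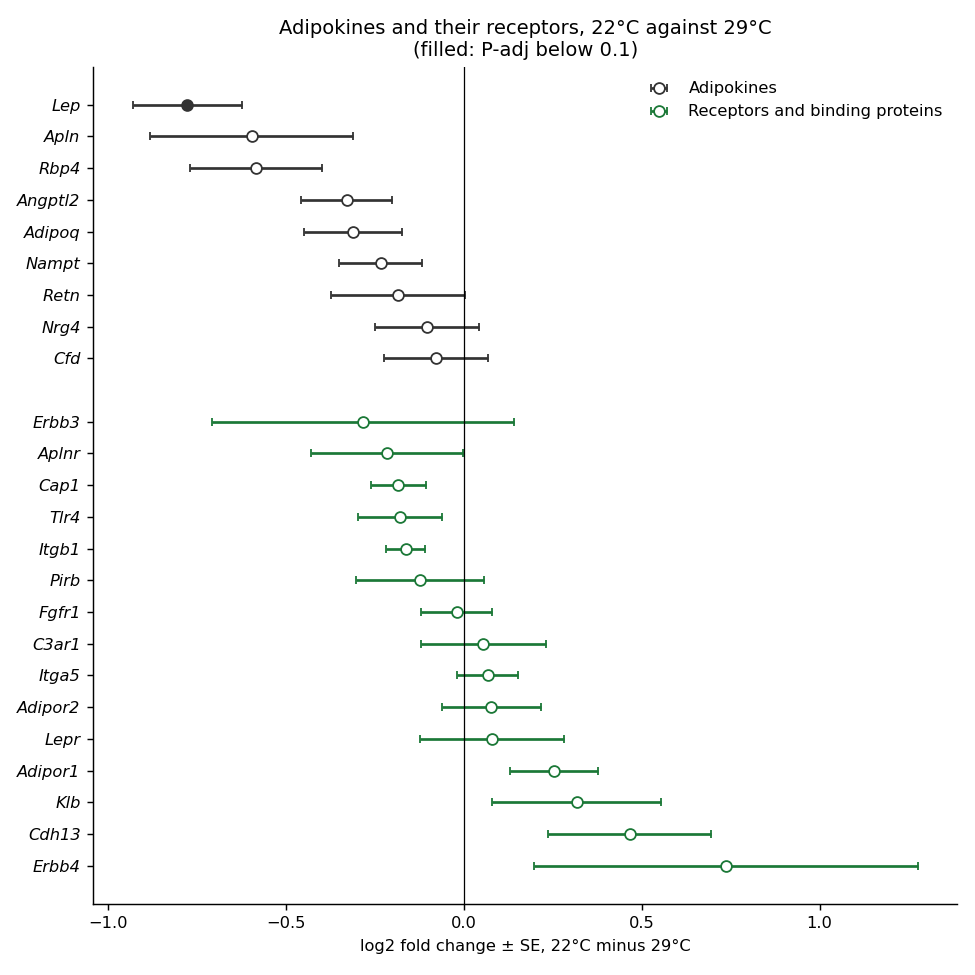
Log2 fold change (horizontal axis, 22°C minus 29°C) ± SE of the 9 tested adipokines (black) and of 15 tested receptors and binding proteins (green), with filled points where P-adj was below 0.1. The adipokines all lie left of 0, from -0.78 (*Lep*) to -0.08 (*Cfd*), while the receptors lie on both sides and none is filled.

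Per kilobase of exon, the adipokines spanned several orders of magnitude. At 22°C the levels were 13640 ± 2170 CPM per kb for *Cfd*, 1622 ± 316 for *Adipoq*, 650 ± 105 for *Retn*, 219 ± 45.0 for *Lep* and 150 ± 34.4 for *Rbp4* (SD, n = 7). They were followed by *Angptl2* at 41.0 ± 9.14, *Nampt* at 24.4 ± 2.12, *Nrg4* at 17.6 ± 3.37, *Apln* at 2.29 ± 0.81 and *Fgf21* at 0.26 ± 0.16 CPM per kb. The order of the means was the same at 29°C, where *Cfd* had 14400 ± 2045, *Adipoq* 2012 ± 209, *Retn* 740 ± 247, *Lep* 376 ± 67.8 and *Rbp4* 224 ± 55.5 CPM per kb (SD, n = 6). Within the libraries, the gene with the higher mean also had the higher level in 13 of 13 for every neighbouring pair but *Lep* and *Rbp4*, where it was 12 of 13. The ranges over libraries nevertheless overlapped for *Lep* and *Rbp4* and for *Nampt* and *Nrg4* at either temperature, so these neighbours were not separated by more than their spread. For *Retn* and *Lep* the ranges overlapped at 29°C only. *Cfd* alone made up 61.6% to 75.3% of the counts of the 10 genes.

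**Figure D4:**
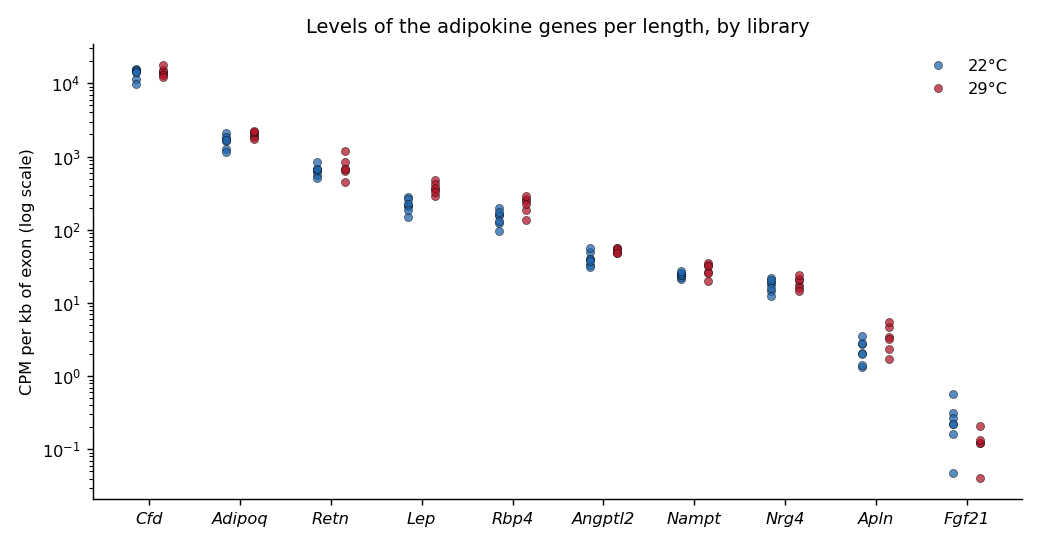
Level per length in CPM per kb of exon (vertical axis, log scale) of the 10 adipokines, ordered by their mean at 22°C, with 1 point per library (blue 22°C, red 29°C). A library with 0 counts of *Fgf21* cannot be drawn on the log axis. *Cfd* stands above *Adipoq* in every library, and *Retn*, *Lep* and *Rbp4* form a middle group whose ranges over all libraries meet.

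The ratio of 2 adipokines within a library does not depend on library size or on RNA from cells that express neither of them. The ratio of *Lep* to *Adipoq* counts was 0.285, 0.418, 0.246, 0.309, 0.352, 0.331 and 0.387 in 22°C replicates 1 to 7. It was 0.631, 0.455, 0.323, 0.598, 0.418 and 0.358 in 29°C replicates 1 to 6. The groups overlapped, with 3 libraries at 22°C below all of 29°C and 4 at 29°C above all of 22°C. Means were 0.332 ± 0.059 at 22°C (SD, n = 7) against 0.464 ± 0.126 at 29°C (SD, n = 6). The difference of the mean log2 ratios was -0.46, with p = 0.0309 in a two-sided exact permutation test over all 1716 splits and P-adj = 0.0845 over the 15 ratios tested. *Lep* was thus lower relative to *Adipoq* at 22°C, but P-adj exceeded 0.1 when any of 22°C replicates 1, 3, 4, 6 or 7 or 29°C replicates 1, 2, 4 or 5 was left out, reaching 0.167 without 29°C replicate 1. Without both muscle-rich libraries it was -0.46 with P-adj = 0.200 (exact permutation test). Among the libraries with higher totals it was -0.33, where 28 splits allow no p below 0.0357 and p was 0.321 (exact permutation test).

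The ratio of *Lep* to *Cfd* separated the temperatures more clearly. It was 0.047, 0.066, 0.050, 0.053, 0.067, 0.058 and 0.069 in 22°C replicates 1 to 7 and 0.123, 0.097, 0.069, 0.118, 0.075 and 0.098 in 29°C replicates 1 to 6. The groups overlapped only by 22°C replicate 7 at 0.06903 and 29°C replicate 3 at 0.06886, and 6 of 7 libraries at 22°C lay below all of 29°C. The log2 difference was -0.70, with p = 0.00117 and P-adj = 0.0175 (exact permutation test). P-adj stayed below 0.1 with any 1 library left out and without both muscle-rich libraries (0.0974). Among the libraries with higher totals it was 0.201. There, 28 splits allow no p below 0.0357. Several of the 15 ratios would have to reach that p together for P-adj to fall below 0.1. That subset could thus hardly decide whether the call holds.

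The ratio of *Cfd* to *Adipoq*, the most abundant pair, averaged 5.66 ± 0.494 at 22°C (SD, n = 7) against 4.80 ± 0.654 at 29°C (SD, n = 6). The groups overlapped, from 4.887 to 6.361 and from 3.657 to 5.591. The log2 difference of 0.25 had p = 0.0163 and P-adj = 0.0845 (exact permutation test). Without both muscle-rich libraries P-adj was 0.200, and it also exceeded 0.1 without 22°C replicates 1, 6 or 7 or 29°C replicates 1, 2, 4 or 6. Among the libraries with higher totals, where no p below 0.0357 was possible, the difference was 0.25 with P-adj = 0.244 (exact permutation test).

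Of the 15 ratios, 7 had P-adj below 0.1, and 6 of these had *Lep* as the numerator. Beside *Adipoq* and *Cfd*, these were the ratios of *Lep* to *Nrg4* (log2 difference -0.68), *Retn* (-0.65), *Nampt* (-0.57) and *Angptl2* (-0.43), with P-adj of 0.0845, 0.0845, 0.0845 and 0.0874 (exact permutation tests). None of these 4 stayed below 0.1 without both muscle-rich libraries (P-adj of 0.200, 0.200, 0.238 and 0.238, exact permutation tests). Nor did any among the libraries with higher totals (0.201, 0.244, 0.201 and 0.201), where no p below 0.0357 was possible. The number of ratios below 0.1 was 1 when any of 22°C replicates 1, 6 or 7 or 29°C replicates 1, 2 or 4 was left out, 2 without 22°C replicate 3 or 29°C replicate 5, 4 without 29°C replicate 6, and 6 or 7 without any other. The ratios of *Lep* to *Rbp4* (-0.21) and to *Apln* (-0.21), the other adipokines with differences near -0.6, had P-adj of 0.594 each. The remaining ratios to *Adipoq* had log2 differences of -0.25 for *Rbp4*, -0.24 for *Apln*, -0.03 for *Angptl2*, 0.12 for *Nampt*, 0.19 for *Retn* and 0.22 for *Nrg4*, with P-adj from 0.216 to 0.846. Because these ratios share *Lep* or *Adipoq*, they are not independent of each other.

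**Figure D5:**
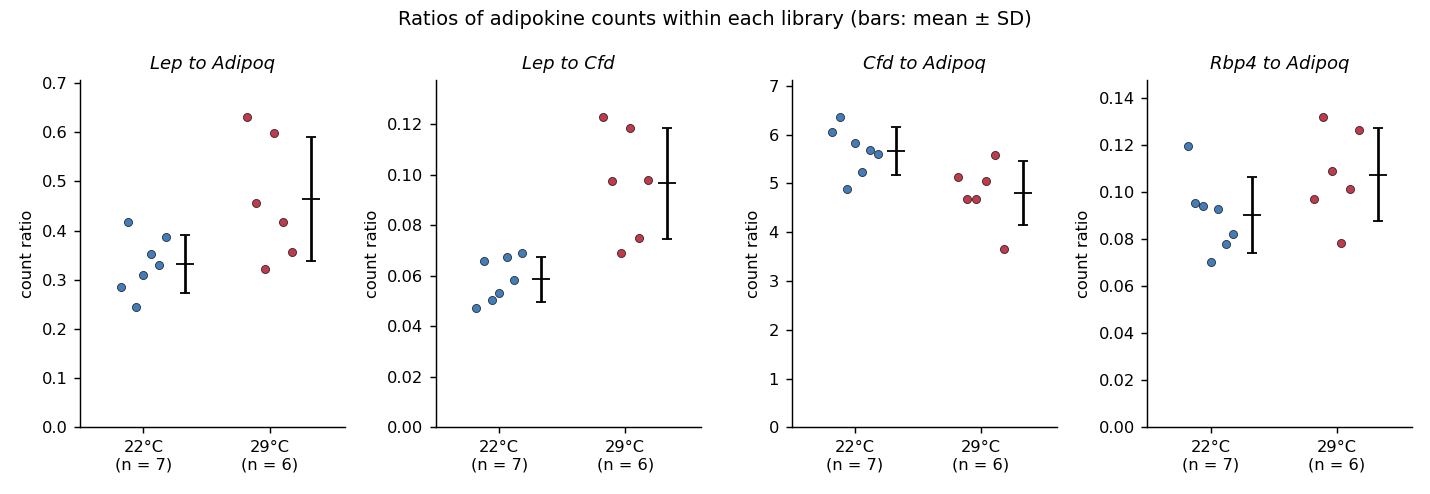
Count ratios within each library (vertical axes, linear, from 0) for *Lep* to *Adipoq*, *Lep* to *Cfd*, *Cfd* to *Adipoq* and *Rbp4* to *Adipoq*, at 22°C (blue, n = 7) and 29°C (red, n = 6), with bars for mean ± SD. The *Lep* to *Cfd* points at 22°C end at 0.06903, where those at 29°C begin at 0.06886, and the other ratios overlap more widely.

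Of 18 receptors and binding proteins of the adipokines, 15 were tested and none passed edgeR's test, with a median log2 difference of 0.05. An unadjusted p was below 0.05 for 2, *Itgb1* and *Cap1*, against 18.5% of all genes tested. DESeq2 called *Itgb1*, against 10.2% of all genes to which it gave an adjusted p. *Lepr*, the leptin receptor, was low in this tissue, at 5.45 CPM at 22°C against 5.16 CPM at 29°C (log2 difference 0.08, SE 0.20). The adiponectin receptors *Adipor1* and *Adipor2* had 235 and 775 CPM at 22°C and 198 and 735 CPM at 29°C, with log2 differences of 0.25 (SE 0.12) and 0.08 (SE 0.14). *Cdh13*, which encodes T-cadherin, had 59.3 CPM at 22°C against 42.9 CPM at 29°C, a log2 difference of 0.47 (SE 0.23) with P-adj = 0.300 (edgeR). The smallest p among these genes belonged to *Itgb1*, an integrin subunit (-0.16, SE 0.06, P-adj = 0.168, edgeR), and *Cap1*, a reported resistin receptor (-0.18, SE 0.08, P-adj = 0.227, edgeR). For the other ligands, the log2 differences were -0.28 for *Erbb3* and 0.74 for *Erbb4*, receptors of neuregulins, -0.22 for the apelin receptor *Aplnr*, -0.02 for *Fgfr1* and 0.32 for *Klb*, which together receive FGF21, and 0.07 for *Itga5*, a partner of ANGPTL2. Of these, *Erbb4* had an SE of 0.54 at a level of 3.42 CPM at 22°C. *Stra6* and *Rbpr2*, which take up retinol from RBP4, and *Ttr*, which carries RBP4 in blood, did not pass the filter on low counts.

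Among 15 genes that transmit the leptin signal or regulate *Lep*, all were tested and none passed edgeR's test, with a median log2 difference of 0.07. An unadjusted p was below 0.05 for 2, *Cebpb* and *Sh2b1*, against 18.5% of all genes tested. DESeq2 called both higher at 22°C, against 10.2% of all genes with an adjusted p called in either direction. *Cebpb*, a C/EBP factor, had 97.9 CPM at 22°C against 70.8 CPM at 29°C, a log2 difference of 0.47 (SE 0.12) with P-adj = 0.105 (edgeR). *Cebpa*, the C/EBP factor of mature adipocytes, had 1217 and 1157 CPM (0.07, SE 0.13). *Sh2b1*, an adaptor that enhances JAK2 signaling, had a log2 difference of 0.20 (SE 0.07, P-adj = 0.162, edgeR). *Pparg*, the master regulator of adipocytes, had -0.20 (SE 0.10, P-adj = 0.310, edgeR), and *Stat3* and *Jak2* had 0.08 and 0.01.

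The 11 genes of adiponectin folding and secretion were all tested and none passed edgeR's test, with a median log2 difference of -0.18. An unadjusted p was below 0.05 for 6 of the 11, against 18.5% of all genes tested. DESeq2 called 4 lower at 22°C (*P4hb*, *Pdia4*, *Hspa5* and *Plod3*), against 4.65% of all genes to which it gave an adjusted p. *P4hb*, a disulfide isomerase, had 356 CPM at 22°C against 418 CPM at 29°C, a log2 difference of -0.23 (SE 0.06, P-adj = 0.110, edgeR). *Hspa5*, the chaperone BiP, had 260 and 351 CPM, a log2 difference of -0.43 (SE 0.12, P-adj = 0.119, edgeR). *Erp44*, which retains adiponectin in the early secretory pathway until it is assembled, had a difference of -0.18 (SE 0.07), and *Ero1a*, the oxidase that promotes its release, -0.29 (SE 0.13).

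Of 35 other secreted factors of adipose tissue, 29 were tested and none passed edgeR's test. The median log2 difference of the 29 was -0.08, with 19 negative and 10 positive. Unadjusted p was below 0.05 for 5, against 18.5% of all genes tested. DESeq2 called *C1qtnf9* and *Adm* lower at 22°C, against 4.65% of all genes to which it gave an adjusted p. *C1qtnf9*, an adiponectin paralog, had 21.5 CPM at 22°C against 32.0 CPM at 29°C, a log2 difference of -0.57 (SE 0.15) with P-adj = 0.110 (edgeR). *Adm*, the vasodilator adrenomedullin, had 7.88 and 12.3 CPM (-0.64, SE 0.21, P-adj = 0.161, edgeR). *Rarres2* (chemerin), *Vegfa* and *Agt* (angiotensinogen) had -0.41, -0.33 and -0.57, with P-adj of 0.212, 0.212 and 0.309 (edgeR).

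Of the 9 tested brown and beige fat markers, given beside *Lep*, edgeR called 3 higher at 22°C, against 0.731% of all genes tested. An unadjusted p was below 0.05 for 7, against 18.5% in either direction. DESeq2 called 6 (also *Ppargc1a*, *Cox7a1* and *Dio2*) of the 8 to which it gave an adjusted p, against 10.2% of all such genes in either direction. The others included *Elovl3* (-0.03, SE 0.92), *Kcnk3* (0.31, SE 0.42) and *Ppara* (0.33, SE 0.15). *Cidea*, a lipid droplet protein of brown fat, had 13.2 CPM at 22°C against 2.31 CPM at 29°C (log2 difference 2.51, SE 0.40, P-adj = 0.0199, edgeR). *Cox8b* had 50.2 and 10.4 CPM (2.27, SE 0.53, P-adj = 0.0827, edgeR), and *Otop1* 4.80 and 0.632 CPM (2.92, SE 0.59, P-adj = 0.0596, edgeR). With the muscle markers' score as a covariate *Cox8b* had 1.30 (P-adj = 0.167, edgeR), and without 22°C replicates 1 and 7 it had 1.34 (P-adj = 0.114, edgeR). Among the libraries with higher totals, *Cidea*, *Cox8b* and *Otop1* had 1.48, 2.73 and 2.47, with P-adj of 0.261, 0.239 and 0.275 (edgeR). *Ucp1*, the defining gene of thermogenic fat, was at 0.088 CPM at 22°C and 0 at 29°C and was not tested. The summed level of the 10 markers was 69.92 to 264.9 CPM at 22°C, against 41.56 to 75.47 CPM at 29°C, highest in the muscle-rich 22°C replicates 1 and 7. Muscle shares some of these genes, and their part in the *Lep* difference was not tested.

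As a description, the genes whose levels most resembled those of *Lep* across the 13 libraries, once the mean of each temperature was subtracted, were *Iffo2* (r = 0.906), *Trim30a* (0.901), *Sumo3* (0.847), *Hnrnpa0* (0.842) and *Luzp1* (0.834), among 10332 genes with a mean of at least 10 CPM. Those most like *Adipoq* were *Aifm2* (r = 0.955), *Eif4h* (0.948), *Tmem59* (0.942), *Spef1* (0.939) and *Acp5* (0.937). The libraries behind these values share their RNA composition, which includes the muscle RNA of 22°C replicates 1 and 7. The 2 sets had no gene in common, and none of the 10 genes passed the test between temperatures (P-adj from 0.187 to 0.990, edgeR).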

How the data were processed

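RNA of gluteal WAT was sequenced from 7 samples at 22°C and 6 at 29°C, grouped and numbered by the submitters' labels. The authors deposited raw counts per gene of 34419 genes, made with STAR 2.7.5a and featureCounts on build GRCm39 per the submitters' processing notes, together with regularized log2 values that the authors computed with DESeq2. The annotation and strand setting are not given in the sources used here, so counts of overlapping and antisense genes are uncertain. Gene symbols were matched by identifier for 34006 genes.

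Genes were compared with edgeR 4.0.16 in R 4.3.3, with filterByExpr (17779 genes kept), TMM normalization, the quasi-likelihood F test, Benjamini-Hochberg adjustment over all genes tested, and P-adj below 0.1. Each SE was obtained as the absolute log2 fold change over the square root of the F statistic. CPM were scaled by TMM library sizes. Exon lengths are the merged exons of GENCODE vM21. Within-library ratios were compared as log2 of counts plus 0.5 by exact permutation tests, two-sided on the absolute difference, over all 1716 splits (the smallest p they can give is 0.000583), adjusted over 15 ratios. In a chi-square comparison of all 78 pairs, every pair differed by more than sampling noise. The upstream sequences come from RefSeq (GRCm38.p6), where all 10 genes matched. No coordinates of the counted genes are given, since the reference build differs from that of the counts.

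The adipokines and all gene lists were chosen with earlier results of these data known. The text names the 10 adipokines. From each other list it names the genes with P-adj below 0.1, or else the 2 with the smallest p, for the lists of receptors, other secreted factors, leptin signaling and adiponectin assembly, the known receptors of each adipokine, and the 5 genes most like *Lep* and *Adipoq*. *Cebpa*, *Pparg*, *Stat3*, *Jak2*, *Erp44*, *Ero1a*, *Rarres2*, *Vegfa*, *Agt*, *Ucp1*, *Stra6*, *Rbpr2*, *Ttr*, *Plin1*, *Fabp4*, *Pdia4*, *Plod3*, *Ppargc1a*, *Cox7a1*, *Dio2*, *Elovl3*, *Kcnk3* and *Ppara* are not covered by it and were added with their values known, and marker lists are given by their sums and counts. Alternatives were DESeq2 1.42.0, its size factors, other filters, robust fitting, a replicate block, muscle, adipocyte and library-total covariates, limma 3.58.1 on the deposited log2 values, a threshold of 0.05, other pseudocounts and leaving out each library. Leaving out 22°C libraries 1 and 7 together was added after the data were seen. The methods were tested on simulated data.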

Additional observations from a re-analysis of the deposited data

How the results depend on the processing

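The sign of the *Lep* difference was the same in all 25 other fits, but P-adj was above the threshold without a filter on low counts (-0.78, P-adj = 0.125), with the muscle score as a covariate (-0.75, 0.150), with library-total cluster as covariate (-0.88, 0.237), in the libraries with higher totals alone (-0.88, 0.259), and at a threshold of 0.05 (-0.78, 0.0564). Leaving out 1 library gave -0.85 to -0.69, with *Lep* above the threshold without 29°C replicate 1 (P-adj = 0.104, edgeR) or 2 (0.124). With the replicate block it was above it too (-0.74, P-adj = 0.121, edgeR). *Rbp4* passed with DESeq2 (-0.59, P-adj = 0.0424) and with the adipocyte marker score (-0.46, 0.0642), and *Angptl2*, from -0.42 to -0.28 with 1 library left out, passed without 22°C replicate 6. Without a filter on low counts, *Cox8b* and *Otop1* lost their calls (P-adj = 0.142 and 0.107), and with 1 library left out *Cox8b* did so in 9 of 13 fits and *Otop1* in 4.

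The number of changed genes (345) was 40 at a threshold of 0.05, 1676 with DESeq2, 42 without a filter, 41 with the muscle score, 4 with the cluster of totals, 8 in the libraries with higher totals, and 32 to 652 with 1 library left out. The *Lep* to *Adipoq* ratio had -0.33 in the libraries with higher totals and -0.46 without 22°C libraries 1 and 7, neither past the threshold, and -0.55 to -0.36 with 1 library left out. The number of ratios past it (7) was 1 without 22°C libraries 1 and 7, and 1 to 7 with 1 library left out. It was 0 in the libraries with higher totals, where no p below 0.0357 was possible.

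The labels do not say that a replicate number is shared by anything but name. The deviations of same-numbered samples had correlations of 0.051 to 0.513, 5 of them at 0.348 or more, and 4 of 6 matched best with their own number. This hints at a shared factor, which the labels do not name. The pair near 0 was that of replicate 5 (0.051). The submitters' own sample numbers are spaced alike in every other pair but differently in this pair. Whether those numbers pair the samples was not tested, and the block used here follows the replicate numbers. With the replicate number as a block, *Lep* had -0.74 (P-adj = 0.121), 214 genes changed, *Fgfr1* turned to 0.015, and the *Lep* to *Adipoq* ratio had -0.50 (P-adj = 0.0938, exact permutation by sign flips). The ratios of *Cfd* to *Adipoq* (P-adj = 0.176) and *Lep* to *Nampt* (0.256) then lost their calls, leaving 5 ratios, of which 64 sign flips allow no p below 0.0312.

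Signs turned for values that were never past the threshold. With the muscle score they were *Retn* (0.021), *Nrg4* (0.048), *Lepr* (-0.028), *Fgfr1* (0.055) and *Itga5* (-0.00029). With the cluster of totals they were *Adipor2* (-0.13), *Erbb4* (-1.68), *Aplnr* (0.29) and *Klb* (-0.21), and in the libraries with higher totals alone -0.14, -1.68, 0.28 and -0.22, with the ratios of *Apln* to *Adipoq* (0.52), *Angptl2* to *Adipoq* (0.36) and *Lep* to *Rbp4* (0.075). Without 22°C libraries 1 and 7 they were *Cfd* (0.042), *Lepr* (-0.032), *Fgfr1* (0.067) and the ratios of *Nampt* to *Adipoq* (-0.089) and *Lep* to *Apln* (0.15). With 1 library left out, *Fgfr1* ran from -0.066 to 0.030, *Adipor2* from -0.014 to 0.13, *Lepr* from -0.0012 to 0.21, *Erbb3* from -0.46 to 0.16 and *Angptl2* to *Adipoq* from -0.10 to 0.05. The cause of these changes was not tested. *Fgf21* had too few counts to be tested with the filter on low counts.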
